A study of Mus musculus with 12 samples.

Results

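The genes described here encode subunits and accessory proteins of Polycomb repressive complexes 1 and 2 (PRC1 and PRC2). They were chosen by name from general knowledge of these complexes, by a rule that uses no measured value, although earlier results of these data were known, and all 33 were found among the 55573 genes of the count table. After the filter on low counts 14197 genes remained, and all 33 were among them. By role they comprise 20 genes of PRC1, 11 genes of PRC2 and 2 genes of the PR-DUB complex, Bap1 and Asxl1. The question put to them is whether the level of any other subunit differed where Bmi1 was targeted, in particular its paralogs such as Pcgf2 and the Cbx genes.

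RNA-seq was performed on CD11b+ F4/80+ cells sorted from cultures of mouse bone marrow, in 4 groups of 3 libraries. Bone marrow came from BMI1fl/fl Mx1-Cre mice (BMI1-KO) and from BMI1fl/fl mice (wt). Mice of both genotypes were 6 to 8 weeks old when they received 5 doses of poly I:C at 15 mg/kg, and the marrow was taken 4 weeks later. The marrow was cultured for 7 days with M-CSF at 5 ng/mL to give macrophages (MΦs), and a further 48 h of co-culture with 5TGM1 mouse myeloma cells gave myeloma-associated macrophages (MM-MΦs). MM-MΦs and MΦs of BMI1-KO and wt marrow thus gave the 4 groups. Mx1-Cre is driven by an interferon-inducible promoter that is active in many cell types, so that deletion is not restricted to macrophages by design, and the wt mice carried floxed alleles without Cre. The sources used here do not say whether the replicates came from separate mice, so the p-values rest on the spread of these libraries alone, which may be technical.

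Polycomb proteins keep genes silent by marking histones. PRC2 methylates histone H3 through Ezh1 or Ezh2, and PRC1 ubiquitinates histone H2A through Ring1 or Rnf2 bound to 1 PCGF protein. Canonical PRC1 holds Bmi1 (also called Pcgf4) or Pcgf2 together with a CBX protein that reads the H3 mark and a PHC protein, whereas variant PRC1 holds RYBP or YAF2 in place of the CBX protein.

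Library totals were 9662279 to 11142768 counts. All 14 genes of the macrophage list had counts in every group, and the summed level of the list was 16466 to 22153 CPM (counts relative to the library total, with TMM scaling) in BMI1-KO MM-MΦs, 17175 to 25742 CPM in wt MM-MΦs, 16825 to 21341 CPM in BMI1-KO MΦs and 16814 to 24080 CPM in wt MΦs. The mean log2 CPM of 34 proliferation genes in replicates 1, 2 and 3 was 2.85, 4.89 and 5.35 in BMI1-KO and 3.90, 4.84 and 6.76 in wt MM-MΦs, and 2.52, 4.69 and 5.25 in BMI1-KO and 3.55, 4.80 and 6.75 in wt MΦs. Replicate 3 was thus the highest library of every group and stood apart in wt, while in BMI1-KO the library that stood apart was replicate 1, the lowest. In bulk samples, fewer cells of a type and less RNA per cell cannot be told apart.

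Bmi1 (ENSMUSG00000026739) lies on the plus strand of chromosome 2. In RefSeq, build GRCm38.p6, the 250 bases before its start are at chr2:18676768-18677017. They are shown because Bmi1 and its closest paralog Pcgf2 both hold the palindrome CACGTG there, printed in capitals.
Bmi1 promoter: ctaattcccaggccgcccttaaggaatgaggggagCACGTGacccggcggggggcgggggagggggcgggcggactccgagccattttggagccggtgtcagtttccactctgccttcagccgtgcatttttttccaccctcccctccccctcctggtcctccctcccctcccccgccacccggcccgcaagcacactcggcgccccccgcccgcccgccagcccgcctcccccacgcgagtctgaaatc
Bmi1 gave 325, 281 and 364 counts among wt MM-MΦs and 251, 263 and 321 counts among wt MΦs, and every BMI1-KO library lists it at 0. The deposited FPKM values imply library totals that are larger than the summed counts by 512 to 734 for BMI1-KO and by −1 to 0 for wt. Whether these zeros were measured is therefore uncertain, and no fold change of Bmi1 between genotypes is given.

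Within wt, Bmi1 reached 7.57, 7.14 and 8.58 FPKM in MM-MΦs and 6.10, 6.69 and 7.49 FPKM in MΦs, values that overlap. On the CPM scale it had 32.4, 29.1 and 31.9 in wt MM-MΦs and 25.5, 26.9 and 27.4 in wt MΦs. These did not overlap, where 5.66% of all genes did not overlap either. Its log2 fold change in wt MM-MΦs relative to wt MΦs was 0.23 (SE 0.17, edgeR adjusted p = 1.0). Averaged over the 6 wt libraries, Bmi1 ranked 11th of the 33 genes at 7.26 FPKM. The levels ran from 34.2 FPKM for Rbbp7, a histone chaperone in PRC2, through 19.1 FPKM for Asxl1 and 15.3 FPKM for Bap1, the PR-DUB genes, to 0.72 FPKM for Cbx8. Low levels were also found for Pcgf6 (0.80 FPKM), Cbx2 (0.96 FPKM) and Cbx7 (1.51 FPKM).

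No member other than Bmi1 passed the threshold in BMI1-KO MM-MΦs when they were set against wt MM-MΦs. edgeR called 0 of 32 members at an adjusted p under 0.05, where 0.0634% of all genes tested were called, and 0 of 32 at an unadjusted p under 0.05, where 5.02% of all genes were. DESeq2 and limma-voom also called 0 of 32. The log2 fold changes were above 0 for 18 of 32 members, with a median of 0.02 against −0.01 over all genes, and ranged from −0.80 for Phf19 to 0.56 for Cbx8. For 24 of 32 members the estimate was under 0.25 in size, and it was so for 8736 of all 14197 genes. For 23 members the 95% interval lay wholly within a 2-fold difference in either direction, and it did so for 8393 of all 14197 genes. On the CPM scale libraries did not overlap for 2 members, Cbx8 (higher in BMI1-KO) and Aebp2 (lower in BMI1-KO), where 8.85% of all genes did not overlap (4.40% higher and 4.46% lower).

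The same held in BMI1-KO MΦs relative to wt MΦs. edgeR called 0 of 32 members at an adjusted p under 0.05, against 0.0493% of all genes, and DESeq2 and limma-voom called 0 as well. At an unadjusted p under 0.05 there was 1 member, Cbx8, where 5.77% of all genes were below that value. The log2 fold changes were above 0 for 19 of 32 members, with a median of 0.03 against −0.01 over all genes, and ranged from −1.52 for Phf19 to 1.05 for Cbx8. The 95% interval lay within a 2-fold difference for 23 of 32 members and for 8319 of all 14197 genes. CPM values of the libraries did not overlap for 3 members, Cbx8, Scmh1 and Yaf2, all higher in BMI1-KO, where 10.0% of all genes did not overlap (5.17% higher and 4.83% lower).

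**Figure D1:**
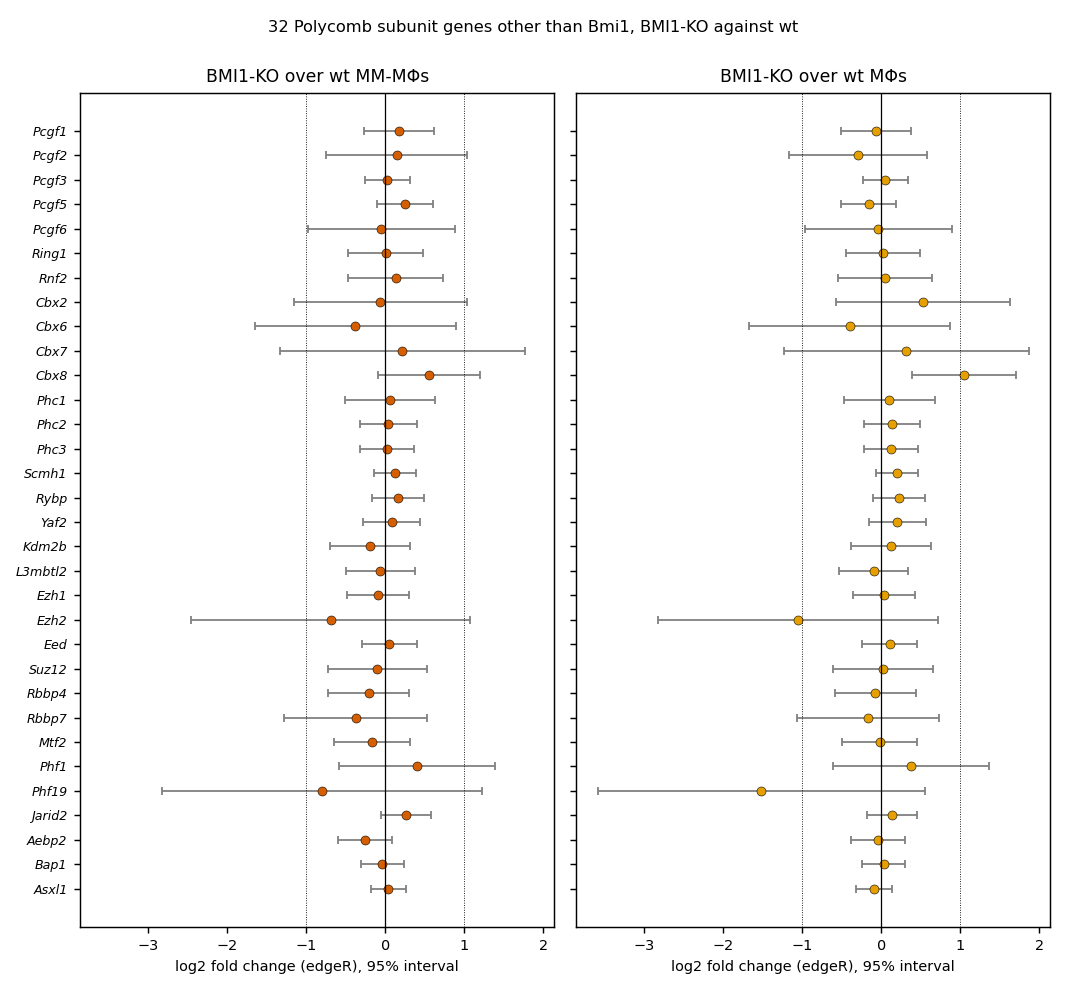
Log2 fold changes of the 32 members other than Bmi1 with their 95% intervals from edgeR, BMI1-KO relative to wt, in MM-MΦs (left) and MΦs (right), with dotted lines at a 2-fold difference in either direction. The interval of Cbx8 in MΦs (0.39 to 1.70) does not reach 0, and those of Ezh2 and Phf19 are the widest.

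The PCGF genes define which form of PRC1 is assembled. Pcgf2 (Mel18), the paralog that takes the place of Bmi1 in canonical PRC1, had 45, 42 and 100 counts in BMI1-KO MM-MΦs against 41, 40 and 91 counts in wt MM-MΦs. In MΦs it had 79, 89 and 55 counts in BMI1-KO and 67, 68 and 151 counts in wt. The genotypes overlapped in both cultures, and the highest library was replicate 3 in every group except BMI1-KO MΦs, where it was the lowest. The log2 fold change was 0.14 (SE 0.41, 95% interval −0.74 to 1.03, edgeR adjusted p = 0.999) in BMI1-KO relative to wt MM-MΦs. In MΦs it was −0.30 (SE 0.40, 95% interval −1.18 to 0.58, edgeR adjusted p = 0.991). Each interval includes a 2-fold difference in 1 direction, and without the 4 libraries numbered 3 the values were 0.14 in MM-MΦs and 0.29 in MΦs.
The palindrome in the Pcgf2 promoter is printed with its flanks, on the minus strand at chr11:97699768-97699797, with CACGTG in capitals.
Pcgf2: aaggaatgaggtCACGTGggtgagtagtgg

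Pcgf1, Pcgf3, Pcgf5 and Pcgf6 are the PCGF subunits of variant PRC1. Pcgf3, the highest of the 5 paralogs per length in each group mean, had 4.95, 5.05 and 5.18 FPKM in BMI1-KO MM-MΦs against 3.97, 4.84 and 6.16 FPKM in wt MM-MΦs, and 5.10, 4.95 and 5.84 FPKM in BMI1-KO MΦs against 4.40, 5.26 and 5.75 FPKM in wt MΦs. Its log2 fold change was 0.03 (SE 0.13, edgeR adjusted p = 0.999) in MM-MΦs and 0.05 (SE 0.13, edgeR adjusted p = 1.0) in MΦs. The 95% interval in MM-MΦs was −0.26 to 0.31, so that a 2-fold difference of Pcgf3 lies outside it. Pcgf1 had 73, 68 and 70 counts in BMI1-KO MM-MΦs against 60, 68 and 62 counts in wt MM-MΦs, and 72, 68 and 83 counts in BMI1-KO MΦs against 79, 81 and 74 counts in wt MΦs. Pcgf5 had 277, 324 and 269 counts in BMI1-KO MM-MΦs against 245, 212 and 296 counts in wt MM-MΦs, and 252, 258 and 327 counts in BMI1-KO MΦs against 321, 253 and 370 counts in wt MΦs. Both overlapped between genotypes in either culture. Their log2 fold changes in BMI1-KO relative to wt were 0.17 (Pcgf1) and 0.25 (Pcgf5) in MM-MΦs, and −0.07 and −0.16 in MΦs. Pcgf6 had 29, 33 and 61 counts in BMI1-KO MM-MΦs against 20, 38 and 72 counts in wt MM-MΦs, and 24, 39 and 55 counts in BMI1-KO MΦs against 31, 35 and 56 counts in wt MΦs. Its replicate 3 was highest in all 4 groups, and the log2 fold changes were −0.05 in MM-MΦs and −0.04 in MΦs.

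The 5 paralogs together reached 13.95 ± 0.51 FPKM in BMI1-KO MM-MΦs and 12.9 ± 2.54 FPKM in wt MM-MΦs (SD, n = 3 each). In MΦs the sum was 14.6 ± 0.81 FPKM in BMI1-KO and 15.5 ± 1.93 FPKM in wt (SD, n = 3 each). The ratios of these means were 1.08 in MM-MΦs and 0.946 in MΦs, and leaving out each library in turn gave 0.988 to 1.20 and 0.900 to 1.02. The difference of the means was smaller than the SD of the wt libraries in both cultures, but larger than the SD of the BMI1-KO libraries. They can be set beside Bmi1 itself, which averaged 7.76 ± 0.74 FPKM in wt MM-MΦs and 6.76 ± 0.70 FPKM in wt MΦs (SD, n = 3 each). Bmi1 made up 41.7%, 36.2% and 35.4% of the summed FPKM of the 6 PCGF genes in wt MM-MΦs, and 30.5%, 31.0% and 29.8% in wt MΦs. These shares did not overlap between the cultures, which is a description without a test or a comparison with other genes.

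**Figure D2:**
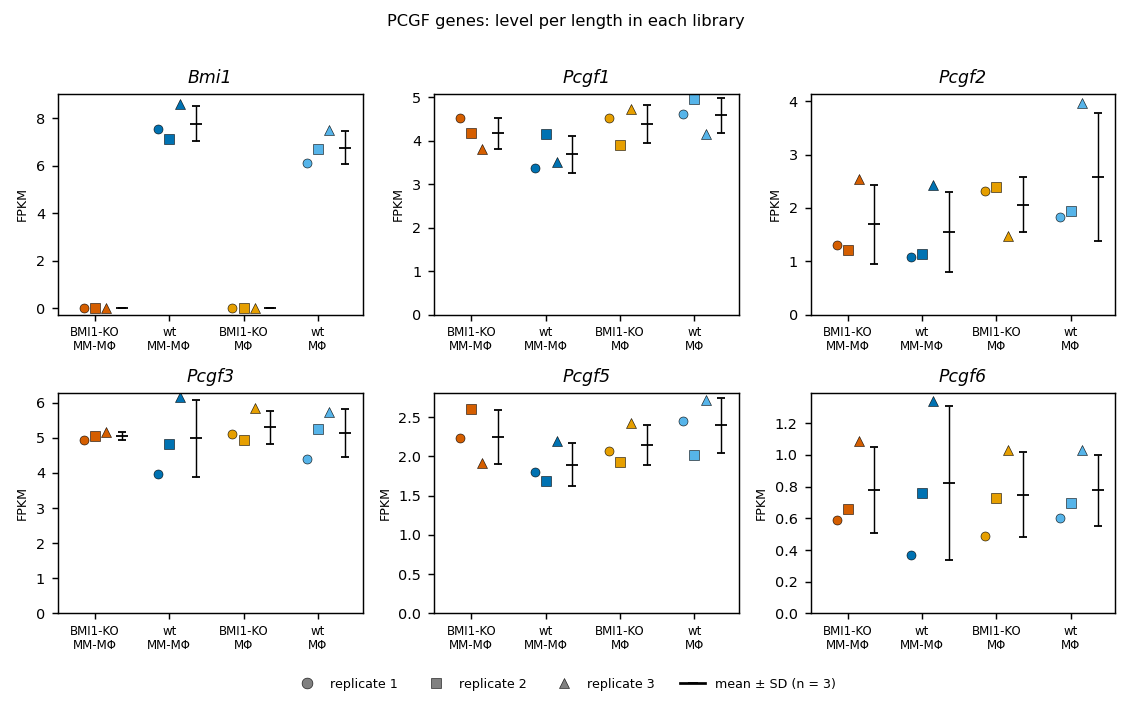
FPKM of the 6 PCGF genes in each library, drawn as a circle (replicate 1), a square (2) or a triangle (3) and the mean ± SD (n = 3) in black, for MM-MΦs (BMI1-KO, then wt) and MΦs (BMI1-KO, then wt). Bmi1 is listed at 0 in BMI1-KO, and the libraries of BMI1-KO and wt overlap for the other 5 genes in both cultures.

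Ring1 and Rnf2 encode the ubiquitin ligases that every PRC1 contains. Rnf2 had 696, 552 and 508 counts in BMI1-KO MM-MΦs against 778, 402 and 459 counts in wt MM-MΦs, and 628, 566 and 616 counts in BMI1-KO MΦs against 634, 614 and 497 counts in wt MΦs. Both genotypes overlapped. The log2 fold changes in BMI1-KO relative to wt were 0.13 in MM-MΦs and 0.05 in MΦs for Rnf2, and 0.00 and 0.02 for Ring1.

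The CBX proteins are the readers of H3K27 methylation in canonical PRC1. Cbx8 had 34, 43 and 62 counts in BMI1-KO MM-MΦs against 25, 32 and 38 counts in wt MM-MΦs. In MΦs it had 48, 60 and 36 counts in BMI1-KO and 19, 22 and 30 counts in wt. The values on the CPM scale were 3.61, 4.31 and 5.55 in BMI1-KO MM-MΦs against 2.50, 3.31 and 3.33 in wt MM-MΦs, and 5.00, 5.72 and 3.27 in BMI1-KO MΦs against 1.93, 2.25 and 2.56 in wt MΦs. Every BMI1-KO library was thus above every wt library in both cultures on this scale, whereas the unscaled counts overlapped in MM-MΦs. The log2 fold change was 1.05 (SE 0.30, 95% interval 0.39 to 1.70, edgeR adjusted p = 0.50) in MΦs, a 2.07-fold higher level that did not pass the threshold. In MM-MΦs it was 0.56 (SE 0.29, 95% interval −0.09 to 1.20, edgeR adjusted p = 0.999). Over the 21 alternatives the MΦ value stayed between 0.88 and 1.36, with a smallest edgeR adjusted p of 0.167, reached with the replicate number as a block. The difference of the co-culture response between genotypes was −0.49 (SE 0.42, edgeR adjusted p = 1.0) for Cbx8, so its 2 genotype values were not shown to differ.

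The palindrome also stands in the Cbx8 promoter, on the minus strand at chr11:119040994-119041023 (capitals).
Cbx8: cgtcgttagcaaCACGTGgggcgggaggaa
For 29 of 33 members RefSeq held a promoter, read from 250 bases before to 50 after each start. CACGTG was found in 8 of these members (27.6%), against 8.09% of 27025 genes. They were Bmi1, Pcgf2, Cbx6, Cbx8, Phc2, Phc3, Rbbp4 and Bap1. A gene was counted if any of its starts held the word, so genes with several starts had more windows. The word reads the same on both strands, so each site was counted once. In the window of each gene with the most CpG, the median was 30 CpG for the members against 8 over all genes. A match is a description of the letters and not a measured site.

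Cbx2 had 20, 49 and 67 counts in BMI1-KO MM-MΦs against 31, 57 and 53 counts in wt MM-MΦs, and 40, 66 and 54 counts in BMI1-KO MΦs against 13, 35 and 67 counts in wt MΦs. The genotypes overlapped, with log2 fold changes of −0.06 (SE 0.50) in MM-MΦs and 0.53 (SE 0.50) in MΦs. Cbx7 had 197, 82 and 51 counts in BMI1-KO MM-MΦs against 115, 82 and 102 counts in wt MM-MΦs, and 250, 101 and 26 counts in BMI1-KO MΦs against 141, 70 and 105 counts in wt MΦs. Cbx6 had 57, 167 and 321 counts in BMI1-KO MM-MΦs against 125, 163 and 430 counts in wt MM-MΦs, and 121, 185 and 264 counts in BMI1-KO MΦs against 136, 174 and 468 counts in wt MΦs. Within BMI1-KO the lowest library of Cbx7 was replicate 3, and in all 4 groups the highest library of Cbx6 was replicate 3. The log2 fold changes in BMI1-KO relative to wt were 0.22 (SE 0.71) in MM-MΦs and 0.32 (SE 0.71) in MΦs for Cbx7, and −0.38 (SE 0.58) and −0.40 for Cbx6.

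The 4 CBX genes summed to 5.55 ± 0.69 FPKM in BMI1-KO MM-MΦs and 5.50 ± 1.73 FPKM in wt MM-MΦs, and to 6.15 ± 1.33 FPKM in BMI1-KO MΦs and 5.37 ± 2.11 FPKM in wt MΦs (SD, n = 3 each). The means differed by less than the SD of either genotype.

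**Figure D3:**
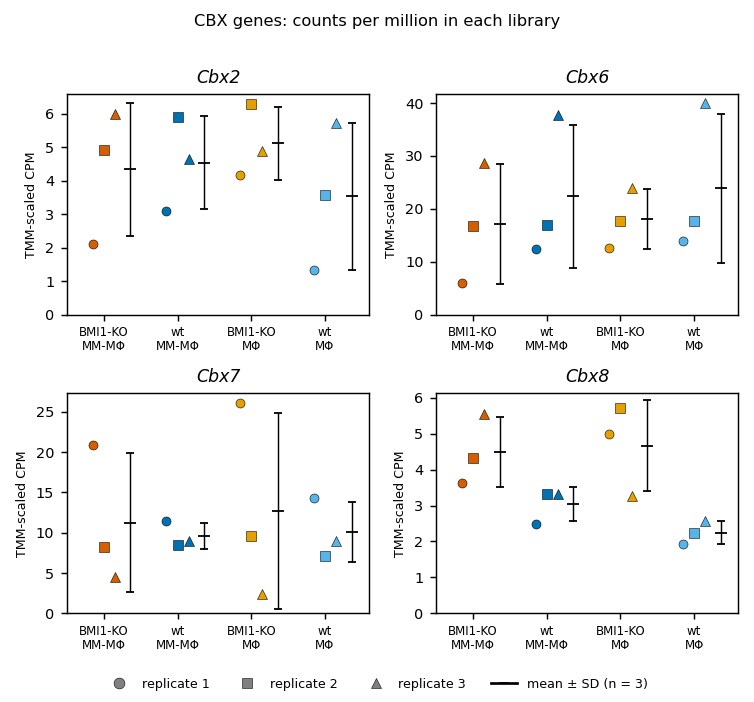
CPM of the CBX genes in each library, drawn as a circle (replicate 1), a square (2) or a triangle (3) and the mean ± SD (n = 3) in black, for MM-MΦs (BMI1-KO, then wt) and MΦs (BMI1-KO, then wt). Every BMI1-KO library of Cbx8 lies above every wt library of the same culture, whereas Cbx2, Cbx6 and Cbx7 overlap.

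The remaining PRC1 and PR-DUB members had estimates under 0.25 in size in both cultures. Phc1, Phc2 and Phc3 encode the subunits through which canonical PRC1 polymerizes, and their log2 fold changes were 0.02 to 0.06 in BMI1-KO relative to wt MM-MΦs and 0.10 to 0.13 in MΦs. Scmh1, which binds PHC proteins, was 0.12 in MM-MΦs and 0.20 (SE 0.12, edgeR adjusted p = 0.972) in MΦs. Rybp and Yaf2 were 0.16 and 0.08 in MM-MΦs, and 0.22 and 0.20 in MΦs. For Kdm2b, which brings a variant PRC1 to unmethylated CpG, the values were −0.19 in MM-MΦs and 0.13 in MΦs, and for L3mbtl2, a subunit of the Pcgf6 complex, −0.06 and −0.10. The PR-DUB genes Bap1, the H2A deubiquitinase, and Asxl1, its partner, were −0.04 and 0.04 in MM-MΦs, and 0.03 and −0.09 in MΦs. All these intervals lay within a 2-fold difference.

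Ezh1 and Ezh2 encode the methyltransferases of PRC2, and Ezh2 is known as the form of dividing cells. Ezh1 had 889, 711 and 727 counts in BMI1-KO MM-MΦs against 840, 881 and 814 counts in wt MM-MΦs, and 949, 863 and 817 counts in BMI1-KO MΦs against 823, 945 and 815 counts in wt MΦs. Its log2 fold changes were −0.09 (SE 0.18, edgeR adjusted p = 0.999) in MM-MΦs and 0.03 (edgeR adjusted p = 1.0) in MΦs. Ezh2 had 95, 229 and 289 counts in BMI1-KO MM-MΦs against 113, 138 and 792 counts in wt MM-MΦs, and 48, 194 and 270 counts in BMI1-KO MΦs against 130, 200 and 774 counts in wt MΦs. Replicate 3 was the highest library in each of the 4 groups, by far in wt. The log2 fold change of Ezh2 was −0.69 (SE 0.80, edgeR adjusted p = 0.999) in BMI1-KO relative to wt MM-MΦs and −1.05 (SE 0.81, edgeR adjusted p = 0.976) in MΦs. Without the 4 libraries numbered 3 the values were 0.38 and −0.51, so the MM-MΦ value turned its sign.

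The mean of the proliferation list, like Ezh2, was highest in replicate 3 of all 4 groups, and no correlation between them was computed. All 34 genes of that list had log2 fold changes below 0 in BMI1-KO relative to wt, with medians of −0.94 in MM-MΦs and −1.06 in MΦs, and edgeR called 0 of them. Mki67, a marker of dividing cells, had 1277, 2743 and 3878 counts in BMI1-KO MM-MΦs against 2494, 2793 and 13180 counts in wt MM-MΦs, and 835, 2702 and 3333 counts in BMI1-KO MΦs against 1848, 2974 and 13118 counts in wt MΦs. Its part in the values of Ezh2 was not tested.

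Phf19, a Polycomb-like protein of PRC2, was highest in replicate 3 of every group except BMI1-KO MΦs. It had 46, 104 and 161 counts in BMI1-KO MM-MΦs against 45, 115 and 404 counts in wt MM-MΦs, and 11, 90 and 83 counts in BMI1-KO MΦs against 41, 77 and 439 counts in wt MΦs. The genotypes overlapped in both cultures. Its log2 fold change was −0.80 (SE 0.92, edgeR adjusted p = 0.999) in MM-MΦs and −1.52 (SE 0.94, edgeR adjusted p = 0.972) in MΦs, and −0.08 and −0.30 without the 4 libraries numbered 3. Phf1, another Polycomb-like protein, had 249, 188 and 146 counts in BMI1-KO MM-MΦs against 184, 193 and 67 counts in wt MM-MΦs, and 249, 214 and 142 counts in BMI1-KO MΦs against 188, 167 and 112 counts in wt MΦs. It was lowest in replicate 3 of all 4 groups, with log2 fold changes of 0.40 in MM-MΦs and 0.37 in MΦs. Mtf2, the remaining Polycomb-like gene, had −0.17 and −0.02.

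The word TTTNNCGC, a loose form of an E2F motif with any base at N, was searched on both strands. It was found in 4 of the 29 members with a promoter (13.8%), Ezh2, Suz12, Phf19 and Asxl1, against 5.93% of all genes with one. The windows of the first 3 were chosen after the levels had been seen, because these genes were highest in replicate 3 of both wt groups. They lie at chr6:47595009-47595038 (minus strand), chr11:79992876-79992905 (plus strand) and chr2:34914166-34914195 (minus strand), with every match in capitals. Phf19 holds 2 matches, both as the reverse complement. The matches are letters and not measured sites, and their part in the levels of these genes was not tested.
Ezh2: gggttgctgcgTTTGGCGCtcggtccggtc
Suz12: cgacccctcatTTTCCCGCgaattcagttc
Phf19: gtcaataattcGCGGGAAAacGCGAAAAAg

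On the CPM scale, replicate 3 was the highest library in all 4 groups for 9 of the 32 members (28.1%), Ezh2, Cbx6, Rbbp7, Pcgf6, Suz12, Kdm2b, Rbbp4, L3mbtl2 and Eed, where 13.8% of all genes showed this. It was the lowest in all 4 groups for 4 members (12.5%), Phc3, Phc2, Ezh1 and Phf1, where 13.5% of all genes did. The mean difference of replicate 3 from the other libraries of its group was 1.77 on the log2 scale for Phf19, 1.63 for Ezh2, 1.22 for Cbx6 and 0.91 for Rbbp7, beside 1.55 for Mki67. It was −1.04 for Phf1 and −1.11 for Cbx7. Suz12, the scaffold of PRC2, had 550, 625 and 712 counts in BMI1-KO MM-MΦs against 506, 457 and 1139 counts in wt MM-MΦs, and 568, 608 and 883 counts in BMI1-KO MΦs against 514, 531 and 1026 counts in wt MΦs. Its log2 fold change in BMI1-KO relative to wt was −0.10 in MM-MΦs and 0.02 in MΦs, and 0.32 (SE 0.12, edgeR adjusted p = 0.737) and 0.15 without the 4 libraries numbered 3. Of the other core subunits, Eed, which binds the mark that PRC2 makes, was 0.05 in MM-MΦs and 0.10 in MΦs, Rbbp4 was −0.21 and −0.08, and Rbbp7 was −0.38 and −0.17. Ezh1 made up a mean of 77.4% of the summed FPKM of Ezh1 and Ezh2 in BMI1-KO MM-MΦs, against 73.3% in wt MM-MΦs, and 82.6% in BMI1-KO MΦs, against 71.5% in wt MΦs. Its lowest shares, 48.0% and 48.6%, were those of replicate 3 in wt.

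**Figure D4:**
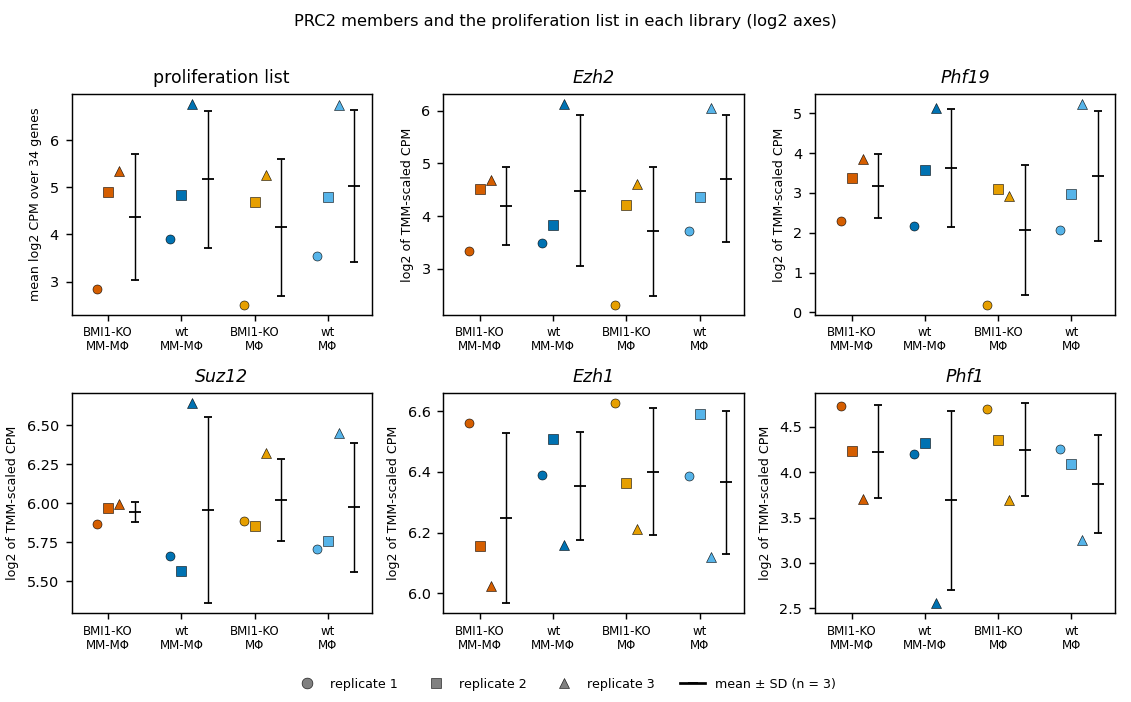
Levels of the proliferation list, Ezh2, Phf19, Suz12, Ezh1 and Phf1 in each library, as the log2 of CPM (the mean over 34 genes for the list), drawn as a circle (replicate 1), a square (2) or a triangle (3) and the mean ± SD (n = 3) in black, for MM-MΦs (BMI1-KO, then wt) and MΦs (BMI1-KO, then wt). Replicate 3 is the highest library of the list and of Ezh2 and Suz12 in all 4 groups, and the lowest of Ezh1 and Phf1.

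Jarid2 and Aebp2 are the accessory subunits of the PRC2.2 form. Jarid2 had 668, 853 and 978 counts in BMI1-KO MM-MΦs against 758, 579 and 769 counts in wt MM-MΦs, with a log2 ratio of 0.27 (SE 0.14, edgeR adjusted p = 0.999) with overlapping libraries. Aebp2 had 539, 666 and 657 counts in BMI1-KO MM-MΦs against 676, 767 and 809 counts in wt MM-MΦs, with a log2 ratio of −0.25 (SE 0.16, edgeR adjusted p = 0.999) without overlap. In MΦs Aebp2 had 500, 768 and 847 counts in BMI1-KO and 683, 754 and 720 counts in wt, which overlapped. The log2 ratios in MΦs were 0.14 for Jarid2 and −0.04 for Aebp2.

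Summed levels of some marker lists of other cells also stood apart by genotype, although edgeR called none of their genes. The summed level of the stem and progenitor list was 44.9 to 115 CPM in BMI1-KO MM-MΦs against 28.2 to 36.1 CPM in wt MM-MΦs, and 43.6 to 101 CPM in BMI1-KO MΦs against 24.0 to 31.9 CPM in wt MΦs, with counts for 8 of 10 genes in both MM-MΦ groups and 7 of 10 in both MΦ groups, and Gata1 at 0 in all groups. The dendritic cell list summed to 95.3 to 113 CPM in BMI1-KO MM-MΦs against 147 to 624 CPM in wt MM-MΦs, and to 59.1 to 101 CPM in BMI1-KO MΦs against 136 to 560 CPM in wt MΦs, with counts for 5 to 7 of its 9 genes in each group and Siglech at 0 in all groups. Of its 2 genes tested, 1 was above 0 and 1 below 0 in log2 fold change in each culture. The B cell list summed to 18.8 to 20.2 CPM in BMI1-KO MM-MΦs against 7.97 to 11.2 CPM in wt MM-MΦs, and to 11.2 to 19.0 CPM in BMI1-KO MΦs against 7.96 to 9.99 CPM in wt MΦs, with counts for 4 or 5 of its 8 genes and Blk and Fcer2a at 0 in all groups. In these 3 lists the genotypes did not overlap, which was not compared with other sets of genes. The lists of T and NK cells, mast cells and basophils, and erythroid cells and megakaryocytes overlapped between genotypes in both cultures. So did the list of stroma and endothelium. The neutrophil list, with counts for 11 of 12 genes in each group, summed to 89.6 to 302 CPM in BMI1-KO MM-MΦs against 91.3 to 230 CPM in wt MM-MΦs, and to 78.2 to 254 CPM in BMI1-KO MΦs against 81.9 to 221 CPM in wt MΦs, which overlapped. Ly6g was at 0 in both MM-MΦ groups and Elane in both MΦ groups. Of its 6 genes tested, 5 were above 0 in MM-MΦs and 6 in MΦs, with median log2 fold changes of 1.96 and 2.12. The part of these lists in the genotype values of Cbx8 and the other members was not tested.

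A list of 49 other Polycomb partners and readers was read in the same fit, of which 44 were tested. edgeR called 0 of 44 in each of the 5 comparisons, and the medians of their log2 fold changes were −0.03 in BMI1-KO relative to wt MM-MΦs and 0.01 in MΦs. Sfmbt2 had the smallest p of the list in both genotype comparisons. Sfmbt2, an MBT-domain Polycomb protein, had 121, 121 and 86 counts in BMI1-KO MM-MΦs against 11, 45 and 17 counts in wt MM-MΦs, and 110, 121 and 145 counts in BMI1-KO MΦs against 22, 36 and 10 counts in wt MΦs. No BMI1-KO library overlapped with a wt library. On the CPM scale 8.85% of all genes in MM-MΦs and 10.0% in MΦs did not overlap between genotypes. The log2 fold changes of Sfmbt2 were 2.18 (SE 0.55, edgeR adjusted p = 0.41) in MM-MΦs and 2.42 (SE 0.56, edgeR adjusted p = 0.308) in MΦs, neither past the threshold. Among the genes with the next smallest p were L3mbtl3 at 0.46 and Commd3, the neighbour of Bmi1, at 0.28 in MM-MΦs, and Mga at 0.35 and Mbd5 at 0.20 in MΦs.

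Co-culture with myeloma cells was compared within each genotype. edgeR called 0 of 32 members in BMI1-KO MM-MΦs relative to BMI1-KO MΦs, against 0.190% of all genes, and 0 of 32 in wt MM-MΦs relative to wt MΦs, against 0.0916%. At an unadjusted p under 0.05 there were 0 members in either, where 2.94% of all genes in BMI1-KO and 1.99% in wt were below that value, and DESeq2 and limma-voom called 0. The median log2 fold change of the members was −0.05 in BMI1-KO (range −0.27 to 0.78) and 0.02 in wt (range −0.71 to 0.44), against −0.01 and 0.00 over all genes. No member other than Bmi1 was without overlap, against 7.08% of all genes in BMI1-KO and 5.66% in wt. Some plasma cell transcripts also differed between the cultures. Igkc, the constant gene of an immunoglobulin light chain, had 357 to 1218 counts in BMI1-KO MM-MΦs against 8 to 25 counts in BMI1-KO MΦs, and 423 to 1327 counts in wt MM-MΦs against 12 to 157 counts in wt MΦs. The plasma and myeloma cell list summed to 582 to 864 CPM in BMI1-KO MM-MΦs against 321 to 563 CPM in BMI1-KO MΦs, and to 590 to 1072 CPM in wt MM-MΦs against 353 to 760 CPM in wt MΦs, with Mzb1 at 0 in all groups but wt MM-MΦs. Counts were found for 13 of its 14 genes in BMI1-KO MM-MΦs, 10 in BMI1-KO MΦs, 14 in wt MM-MΦs and 13 in wt MΦs. The sums overlapped between the cultures in wt but not in BMI1-KO. edgeR called 1 of 9 tested genes of the list in BMI1-KO and 0 in wt. Sdc1, also on the list, overlapped, with 145 to 188 against 77 to 207 counts in BMI1-KO. In wt it had 362 to 1298 counts in MM-MΦs and 284 to 1169 in MΦs. The part of these transcripts in the members' values was not tested. Of the list of other Polycomb partners, the smallest p in BMI1-KO were those of Max (0.29), Lcorl (−0.23), Elob (0.47) and Kdm6a (−0.13), with log2 fold changes in brackets, and in wt those of Max (0.20), Kdm1b (0.26), Phf20 (0.12) and Foxk2 (0.18).

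Replicate numbers were taken to pair MM-MΦs with MΦs within a genotype. In BMI1-KO the within-number log2 ratios of Pcgf2 were −1.01 to 0.84, with no common direction, and those of Jarid2 (0.16 to 0.48), Phf19 (0.28 to 2.09) and Ezh2 (0.08 to 1.01) were above 0 in 3 of 3 pairs. In wt the ratios of Pcgf2 were −0.75 to −0.69, lower in MM-MΦs in 3 of 3 pairs. Those of Pcgf5 were −0.42 to −0.24 and of Pcgf1 −0.42 to −0.22, both lower in 3 of 3, while Cbx8 (0.37 to 0.56) and Bmi1 (0.11 to 0.35) were higher in 3 of 3. One direction in all 3 pairs was seen for 6 of 32 members in BMI1-KO, where 30% of all genes showed it, and for 11 of 32 in wt, where 28.5% did. In the fit without pairs the log2 fold change of Pcgf2 in wt was −0.71 (SE 0.40, 95% interval −1.60 to 0.17, edgeR adjusted p = 1.0). With the replicate number as a block within genotype, edgeR called 0 members in each, where 2.17% of all genes in BMI1-KO and 1.10% in wt were called. In that fit the smallest adjusted p of a member was 0.0774 for Phf19 in BMI1-KO (log2 fold change 0.89, SE 0.25), and Pcgf2 in wt had −0.72 (SE 0.29, edgeR adjusted p = 0.58).

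**Figure D5:**
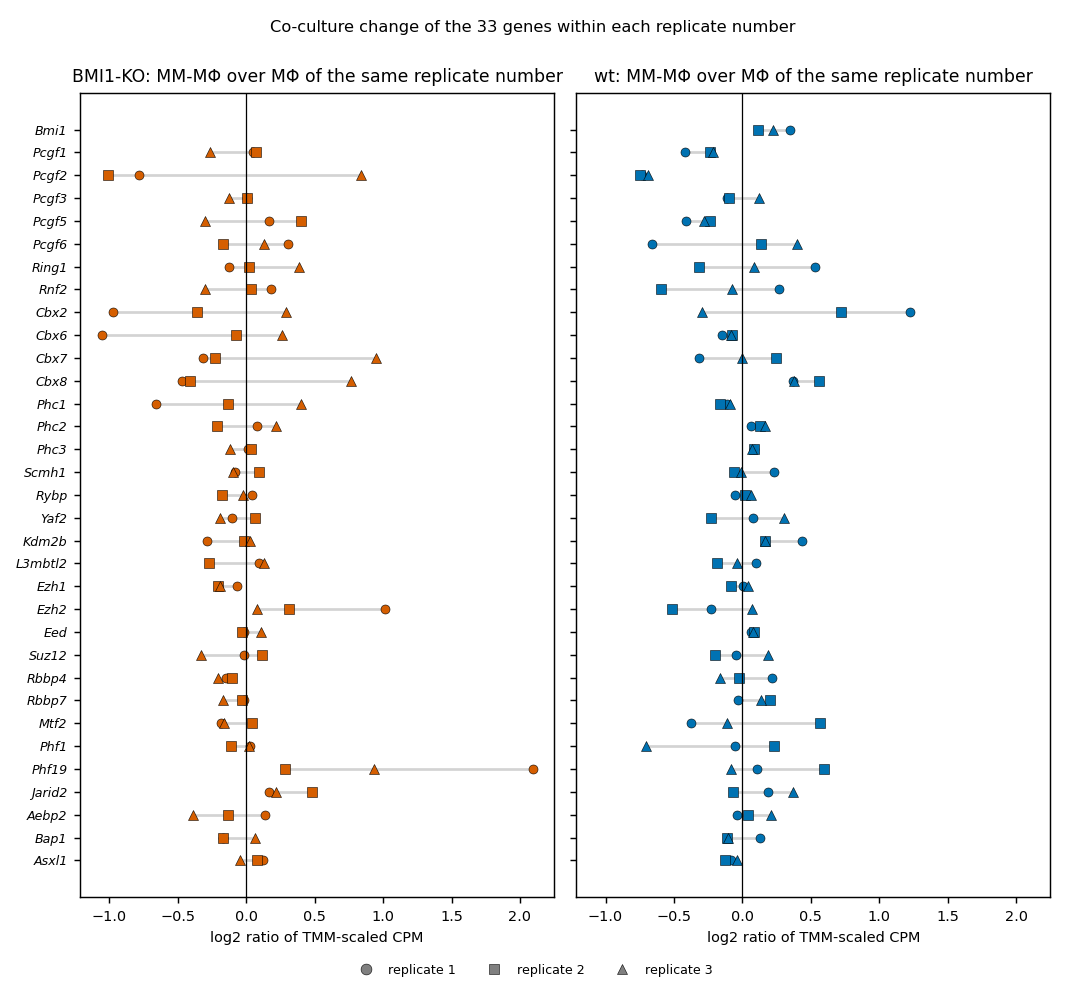
Log2 ratio of MM-MΦ over MΦ libraries of the same replicate number for each member, in BMI1-KO (left) and wt (right), drawn as a circle (number 1), a square (2) or a triangle (3). The 3 ratios of Pcgf2 run from −1.01 to 0.84 in BMI1-KO, whereas in wt they lie between −0.75 and −0.69.

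The interaction asks whether the co-culture difference in BMI1-KO exceeded that in wt. edgeR called 0 of 32 members, against 0.00% of all genes, and at an unadjusted p under 0.05 there were 0 members and 0.909% of all genes. The differences were above 0 for 11 of 32 members, with a median of −0.06 against 0.00 over all genes. With the block within genotype it called 0 members and 0.00704% of all genes. Pcgf5 had the smallest p of the members, with a difference of 0.41 (SE 0.23, edgeR adjusted p = 1.0), and Pcgf2 had 0.44 (SE 0.57, edgeR adjusted p = 1.0). The co-culture values of Pcgf2 were therefore not shown to differ between genotypes. Of the list of other Polycomb partners, the smallest p were those of Kdm1b (−0.49), Commd3 (0.26), Lcorl (−0.21) and Elob (0.52), with the difference in brackets.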

How the data were processed

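RNA was extracted from sorted CD11b+ F4/80+ cells and sequenced from a total RNA library kit. The authors deposited raw counts per gene and FPKM per gene for each library, made on GRCm38 (mm10). The submitters' processing notes name HTSeq 0.6.1, HISAT2 2.0.1, cutadapt 1.9.1, bcl2fastq 2.17.1.14 and DESeq2. Strand setting, annotation release and the version of DESeq2 are not given there or in the paper's methods, so reads of overlapping genes on opposite strands may not have been told apart.

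Counts were fitted with edgeR 4.0.16 in R 4.3.3 (TMM, filterByExpr at min.count 10, min.total.count 15, large.n 10, min.prop 0.7). A quasi-likelihood model held a mean for each of the 4 groups of 3 libraries, with 5 comparisons. P-values were two-sided and adjusted by Benjamini-Hochberg over 14197 genes, with a threshold of 0.05. The fit of BMI1-KO against wt MM-MΦs was tested on simulated data. Deposited FPKM values served to compare levels between genes. Members' families, other Polycomb partners, proliferation genes and markers of cell types were read as fixed lists. The cell types were macrophages, plasma and myeloma, stem and progenitor, dendritic, B, T and NK cells, and neutrophils. Mast cells and basophils, erythroid cells and megakaryocytes, and stroma and endothelium were read as well. The members and lists were chosen with earlier results of these data known. Values in every library were given for the PCGF and CBX genes, Ezh1, Ezh2 and any member with p under 0.05, and from the list of partners for the 4 genes with the smallest p, except an item that is not reported here. Library values of Rnf2, Phf19, Phf1, Suz12, Jarid2 and Aebp2 were added after they had been seen.

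The labels share replicate numbers over the groups. The deviations of MM-MΦ and MΦ libraries with the same number correlated across genes at 0.642, 0.18 and 0.598 in BMI1-KO and 0.548, 0.361 and 0.725 in wt, so the numbers were taken as pairs within a genotype, from the data and not from a stated shared culture. Between genotypes numbers 1, 2 and 3 gave 0.497, 0.0331 and 0.508 in MM-MΦs and 0.481, −0.0313 and 0.503 in MΦs. Pairs were accepted where every correlation was over 0.1, which number 2 did not reach between genotypes, so genotypes were not paired. Numbers 1 and 3 did reach it there, and a replicate block over the 4 groups was kept as an alternative.

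Each result was recomputed with limma-voom (limma 3.58.1), DESeq2 1.42.0, 2 other scalings, no filter or at least 1 CPM in 3 libraries, only the 6 libraries compared, a replicate block, each library left out in turn and no libraries numbered 3. Promoters were taken from RefSeq (GRCm38.p6) for 29 of 33 members.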

Additional observations from a re-analysis of the deposited data

How the results depend on the processing

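The count of 0 members called held in all 107 alternatives over the 5 comparisons. For Pcgf2 the sign of the difference between genotypes was not stable. Leaving out each library in turn gave −0.26 to 0.55 in BMI1-KO relative to wt MM-MΦs, with −0.02 without wt MM-MΦ replicate 1 or 2 and −0.26 without BMI1-KO MM-MΦ replicate 3, and −0.46 to 0.077 in MΦs, with 0.077 without wt MΦ replicate 3. Without the 4 libraries numbered 3 it was 0.29 in MΦs, and the interaction was −0.15. The cause was not tested. Ezh2 ran from −1.09 to 0.63 in MM-MΦs and −1.51 to −0.07 in MΦs over the alternatives, and Phf19 from −1.25 to 0.29 and −1.97 to −0.06.

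Counts over all genes, in the order BMI1-KO against wt MM-MΦs, BMI1-KO against wt MΦs, co-culture in BMI1-KO and co-culture in wt, were 9, 7, 27 and 13. They were 89, 80, 91 and 58 with DESeq2, 21, 14, 42 and 22 with no filter, 4, 2, 0 and 6 with only the 6 libraries compared, and 181, 206, 110 and 63 with the replicate block over the 4 groups. Limma-voom gave 2 for co-culture in wt. Without the libraries numbered 3 they were 7, 5, 1 and 1, and leaving out 1 library gave 3 to 11, 2 to 6, 4 to 23 and 0 to 21.

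With the replicate block over the 4 groups the number of members called was 0 in each comparison, and in MΦs Cbx8 had an adjusted p of 0.167, Phf19 of 0.183 and Ezh2 of 0.222 (edgeR). The block within genotype, chosen after seeing the data, gave 308 genes for co-culture in BMI1-KO, 156 in wt and 1 for the interaction, and changed no call of a member. Leaving out a library from a group of 3 assumes that the others vary alike. A difference within a member's 95% interval was not excluded by the fit, so a member that was not called may still differ. The intervals also followed the spread between libraries, with an SE in MM-MΦs of 0.20 for Pcgf1 and 0.41 for Pcgf2, at mean counts of 71.5 and 72.3.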
